A study of Mus musculus with 3 samples.

Results

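The transcripts of 10 genes of the Notch pathway were followed in 3 cultured mouse myoblast lines. The set was taken by name and held 3 receptors (Notch1, Notch2 and Notch3), 4 ligands (Dll1, Dll4, Jag1 and Jag2) and 3 target genes (Hes1, Hey1 and Heyl), which are 10 of the 35562 genes measured. Deposited values of all transcripts of a gene were summed.

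Notch receptors are membrane proteins that are activated by Delta-like and Jagged ligands on a neighbouring cell. Cleavage by ADAM proteases and then by gamma-secretase frees the intracellular part of the receptor, which enters the nucleus, binds the DNA-binding protein Rbpj and switches on target genes, foremost the Hes and Hey transcriptional repressors. In skeletal muscle the pathway is known for keeping satellite cells, the Pax7-expressing muscle stem cells, quiescent and undifferentiated, and for holding back the myogenic factors Myod1 and Myog.

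The 3 lines, numbered 66, 67 and 72, shared the genotype Dmdmdx; Pax7-nGFP, and in all of them the dystrophin gene Dmd had been edited with CRISPR/Cas9. Per the study the edit makes splicing skip the exon with the mdx mutation, which restores the reading frame. They were grown from iPSC-derived satellite cells of mouse chimeras made within the species, which the study purified by sorting for nGFP, and Pax7-nGFP is a reporter that puts nuclear GFP under the control of Pax7. Per the study's methods the host blastocysts carried Pax7Cre/ERT2 and Rosa26lsl-DTA, with which tamoxifen ablates the Pax7-expressing cells of the host. The labels do not say which line came from which chimera, at what age, or after tamoxifen. For this reason, and with no unedited line among them, the lines were treated as 1 condition with n = 3. A spread between lines therefore covers these 3 cultures, and whether they came from separate animals is not given.

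Total estimated counts were between 66972426 and 73274315 per line. The myoblast label was met by its markers, of which 10 of 10 had a mean of at least 10 TPM (the share of all transcripts of a library, corrected for transcript length). Of the markers of other cells, 0 of 10 endothelial, 0 of 8 fibro-adipogenic, 0 of 7 immune and 0 of 6 Schwann cell genes reached that mean, but 3 of 9 mural cell genes did. The study describes the myoblasts of its bulk RNA-seq as purified by sorting (FACS). In such bulk RNA, fewer cells of a type and less RNA per cell cannot be told apart.

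The members fell into 3 levels. Hes1, Jag2, Notch3, Dll1, Notch1 and Notch2 had a mean of at least 10 TPM, which 33% of the 25510 genes with any signal reached. Hey1, Jag1 and Heyl lay between 1 and 10 TPM, and Dll4 lay close to the limit of detection. Of the genes with any signal, 92.3% lay below Hes1, 77.2% below Notch2, 58.4% below Heyl and 20.7% below Dll4.

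**Figure D1:**
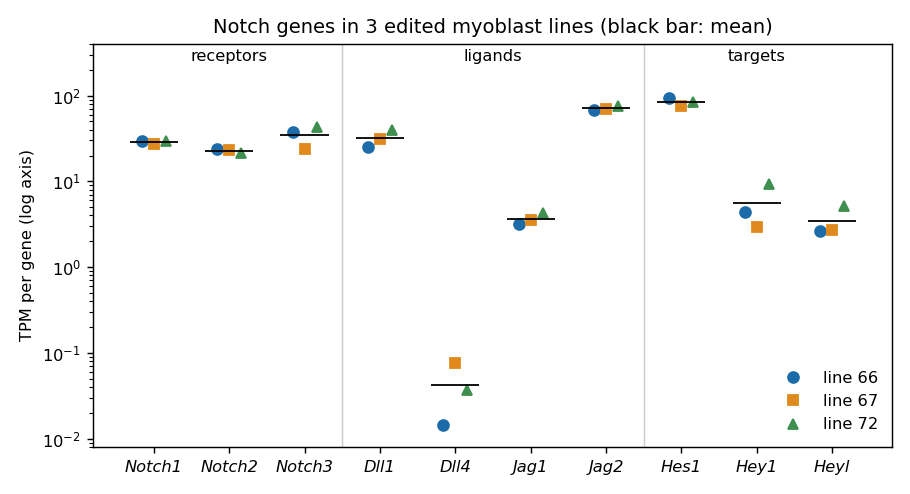
TPM summed per gene (log axis) for the 10 Notch genes in lines 66, 67 and 72, with 1 point per line and a black bar at the mean of the 3 lines. Hes1 and Jag2 lie highest at means of 84.5 and 71.3 TPM, Dll4 lies lowest, and the points of Hey1, Notch3, Heyl and Dll1 spread more than those of Notch1, Notch2 and Jag2.

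All 3 receptors were expressed. Notch1, a receptor of myogenic cells from the embryo on, was at 29.6 TPM in line 66, 27.4 in line 67 and 29.9 in line 72 (29.0 ± 1.36, SD, n = 3), from 14848, 13021 and 14272 estimated counts. The gene lies at chr2:26457903-26516663 on the minus strand (GRCm38). Notch2, at chr3:98013527-98150361 on the plus strand, was at 23.7, 23.2 and 21.5 TPM in lines 66, 67 and 72 (22.8 ± 1.13, SD, n = 3). The lines were close to each other for both genes, with the highest line 1.09-fold above the lowest for Notch1 and 1.10-fold for Notch2. Notch1 was above Notch2 in 3 of 3 lines, by 0.33 ± 0.12 (SD) on the scale of log2(TPM + 1), and their ranges did not overlap.

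Notch3, a receptor of satellite cells and also of the mural cells that wrap small vessels, differed more between lines. It was at 37.6 TPM in line 66, 24.0 in line 67 and 42.8 in line 72 (34.8 ± 9.73, SD, n = 3), from 17275, 10856 and 19375 estimated counts. Line 67 stood apart on the low side, and the highest line was 1.79-fold above the lowest, a larger ratio than that of 95.8% of the 8428 genes whose mean reached 10 TPM. Notch3 was above Notch1 in lines 66 and 72 and below it in line 67, so these receptors had no fixed order. The fourth receptor, Notch4, which is known from endothelial cells, had 17, 18 and 19 counts in lines 66, 67 and 72, a mean of 0.189 TPM.

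The mural markers were high in part, and their part in the Notch3 level was not tested. Rgs5 was at 356, 137 and 172 TPM and Acta2 at 209, 292 and 581 TPM in lines 66, 67 and 72, so these markers had their lowest values in different lines. The summed level of the 9 mural markers was 587, 452 and 771 TPM and came mostly from this pair, and the lines had the same order for this sum as for Notch3. The third marker over 10 TPM, Mcam, was at 19.4, 16.2 and 14.8 TPM, Abcc9 at 1.12, 1.26 and 1.68 TPM, and Cspg4 at 0.813, 5.24 and 1.33 TPM, none of them in that order. Of the other 4 markers, Higd1b had 0 counts in every line, which allows up to 3 counts, Kcnj8 had at most 1 count, and Pdgfrb and Myh11 had means below 1 TPM, of which Myh11, with 10, 7 and 13 counts, had the line order of Notch3. The study sorted for nGFP, and a purity of lines 66, 67 and 72 after the sort was not at hand.

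The window before the start of Notch3 is shown because Notch3 was the receptor that differed between lines. It covers the 250 bases before the RefSeq start, chr17:32166891-32167140, minus strand (GRCm38.p6), written 5′ to 3′. Capitals mark matches to the N-box CACNAG, the letters that Hes repressors are known to bind, read on both strands.
Notch3: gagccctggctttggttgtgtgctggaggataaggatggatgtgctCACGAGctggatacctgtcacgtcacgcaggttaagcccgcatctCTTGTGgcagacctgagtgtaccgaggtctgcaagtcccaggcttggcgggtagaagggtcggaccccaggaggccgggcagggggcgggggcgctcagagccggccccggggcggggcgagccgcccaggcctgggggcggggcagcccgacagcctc
The matches begin 204 and 159 bases before the start. An N-box match is found in 36.7% of all 32851 RefSeq windows of this kind, so a match is common, and it is a description of the letters and not evidence of a bound site.

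Among the ligands, Jag2 was the most abundant. It lies at chr12:112907819-112929776 on the minus strand and was at 68.8 TPM in line 66, 69.8 in line 67 and 75.4 in line 72 (71.3 ± 3.57, SD, n = 3), from 10867, 10003 and 10397 estimated counts. The lines were again close, with the highest 1.10-fold above the lowest. Part of these TPM belonged to short transcript models that do not code for the protein, and the coding transcripts alone were at 41.1, 42.5 and 42.3 TPM.

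Dll1, the Delta-like ligand known from differentiating myoblasts, which signal through it to their neighbours, was at 25.5 TPM in line 66, 31.6 in line 67 and 40.1 in line 72 (32.4 ± 7.34, SD, n = 3), from 3282, 3702 and 4910 estimated counts. Line 72 was highest and line 66 lowest, 1.57-fold apart, a larger ratio than that of 92.4% of those genes. Line 72 was likewise highest and line 66 lowest for Myog, the factor that marks entry into differentiation, at 168, 222 and 310 TPM in lines 66, 67 and 72. The early fusion gene Mymk (67.6, 106 and 119 TPM) and the embryonic myosin Myh3 (204, 262 and 339 TPM) had their highest and lowest values in the same lines, but Myod1 was lowest in line 72 and Myf5, Mki67 and Top2a were highest in line 67. The satellite cell factor Pax7 was, like Dll1, lowest in line 66 and highest in line 72. With 3 lines no correlation was computed, and whether Dll1 goes with the differentiated share of the sequenced cells was not tested.

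The window before the start of Dll1 is shown because Dll1 was the ligand of at least 10 TPM that differed most between lines. RefSeq gives it a pair of windows, and the one printed is that with more E-boxes, chr17:15376933-15377182, minus strand (GRCm38.p6). The other, chr17:15375824-15376073, held 1 E-box. Capitals mark matches to the E-box CANNTG, the letters that Myod1, Myog and other basic helix-loop-helix factors are known to bind, which read the same on both strands.
Dll1: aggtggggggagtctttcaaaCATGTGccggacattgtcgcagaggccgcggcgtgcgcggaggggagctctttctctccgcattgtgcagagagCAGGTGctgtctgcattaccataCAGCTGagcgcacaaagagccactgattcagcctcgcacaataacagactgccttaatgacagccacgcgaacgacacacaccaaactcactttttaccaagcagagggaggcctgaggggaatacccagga
The 3 matches begin 229, 155 and 132 bases before the start. E-box letters occur in 66.2% of all 32851 windows. The window overlaps an exon of the antisense gene A930024N18Rik, which has no values in the tables, and since the strand setting of the counting is not given, reads of that gene cannot be told apart from those of Dll1 where they overlap.

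The other ligands were low. Jag1, at chr2:137081456-137116644 on the minus strand, is the ligand mutated in Alagille syndrome and was at 3.20, 3.51 and 4.29 TPM in lines 66, 67 and 72 (3.67 ± 0.562, SD, n = 3), from 769, 743 and 947 estimated counts. It was below Dll1 in 3 of 3 lines, by 2.82 ± 0.15 (SD) on the log2(TPM + 1) scale. Dll4, the ligand of sprouting endothelium, at chr2:119325784-119335962 on the plus strand, had 3, 6 and 3 counts in lines 66, 67 and 72. The exact 95% Poisson intervals of these counts are 0.619 to 8.77 for 3 and 2.2 to 13.1 for 6, so the lines could not be told apart. Endothelial markers were also near the floor, with 9 of 10 below a mean of 1 TPM, 2, 4 and 12 counts of Cdh5, and summed levels of 8.71, 10.3 and 7.57 TPM in lines 66, 67 and 72, most of which was Egfl7 (6.78, 9.27 and 6.14 TPM).

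Summed over the genes, the receptors were at 90.8, 74.6 and 94.3 TPM and the ligands at 97.5, 105 and 120 TPM in lines 66, 67 and 72. The ligand sum was above the receptor sum in 3 of 3 lines by TPM, but the order turned over when the protein-coding transcripts alone were summed, where the receptors were higher by 0.34 on the log2(TPM + 1) scale. No order of the sums is therefore given.

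The targets lay far apart from each other. Hes1, the repressor whose level is known to oscillate in proliferating myoblasts, lies at chr16:30064384-30067796 on the plus strand and was the highest of the 10 genes at 93.7 TPM in line 66, 75.1 in line 67 and 84.6 in line 72 (84.5 ± 9.32, SD, n = 3), from 5849, 4343 and 4983 estimated counts. Its highest line was 66 and not 72, with a ratio of 1.25 between the highest and lowest line. Hes1 was above Heyl in 3 of 3 lines, by 4.29 ± 0.46 (SD) on the log2(TPM + 1) scale.

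Hey1 and Heyl, repressors that in satellite cells are known as Notch-driven genes, were low and had their highest value in line 72. Hey1, at chr3:8663359-8667256 on the minus strand, was at 4.38, 2.91 and 9.36 TPM in lines 66, 67 and 72 (5.55 ± 3.38, SD, n = 3), from 396, 303 and 1004 estimated counts. Line 72 was 3.21-fold above line 67. Heyl, at chr4:123233556-123249875 on the plus strand, was at 2.61, 2.69 and 5.16 TPM (3.49 ± 1.45, SD, n = 3), from 423, 613 and 1175 estimated counts. The highest line was 1.97-fold above the lowest by TPM and 2.98-fold by the coding transcripts alone, because a transcript model of 374 bases took 0.822 TPM from 8.74 counts in line 66.

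Ordered by mean TPM, the genes ran Hes1, Jag2, Notch3, Dll1, Notch1, Notch2, Hey1, Jag1, Heyl and Dll4. Hes1 was above Jag2 in 3 of 3 lines although their ranges overlapped. Neighbours that did not separate beyond the spread between lines were Notch3 and Dll1, Dll1 and Notch1, Hey1 and Jag1, and Jag1 and Heyl. The ranges of Jag2 and Notch3, Notch1 and Notch2, Notch2 and Hey1, and Heyl and Dll4 did not overlap. By coding transcripts alone, Dll1 (20.9 ± 5.04 TPM, SD, n = 3) came below Notch1 (28.2 TPM) and Notch2 (22.7 TPM) in the mean, and the range of Jag2 (41.1 to 42.5 TPM) met that of Notch3 (23.4 to 41.4 TPM).

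For 6 pairs chosen for test, receptors against ligands, Notch1 against Notch2, Notch1 against Notch3, Jag1 against Dll1, Hes1 against Heyl and Heyl against Hey1, an exact two-sided sign-flip test over the 3 lines gave p = 0.25 for each but Notch1 against Notch3, where p was 0.5. The smallest p that 3 lines allow in this exact test is 0.25 (0.3 after Benjamini-Hochberg adjustment over the 6 pairs), so no pair could pass a threshold of 0.05, and the spread between lines is what the comparisons above rest on.

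Differences between lines were then read against all genes. Of the 6 members whose mean reached 10 TPM, 2 (Notch3 and Dll1) had a highest line over 1.5-fold above the lowest, where 9.79% of the 8428 genes did, and 0 of 6 were over 2-fold, where 2.47% were. The median ratio of the 6 was 1.17, against 1.18 over those genes, and at a minimum of 1 TPM the medians were 1.34 and 1.22. With the minimum lowered to 1 TPM, 4 of 9 members were over 1.5-fold, where 19.7% of 12528 genes were, 1 of 9 (Hey1) was over 2-fold, where 7.19% were (Heyl too was over 2-fold by coding transcripts and by CPM), and Hey1 and Heyl joined Notch3 and Dll1. All 4 were highest in line 72, and 7.75% of the 12528 genes were both over 1.5-fold and highest in that line.

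Line 72 held the highest value of 4 of 6 members, where it did so for 45.7% of the 8428 genes, so that this count says little. Line 66 held it for 2 of 6 (28.1% of the genes) and line 67 for 0 of 6 (26.2%). At the minimum of 1 TPM the highest line was 72 for 7 of 9 members (44.4% of the genes), 66 for 2 of 9 (29.8%) and 67 for 0 of 9 (25.8%). The members' median log2 ratio of line 72 to the mean of lines 66 and 67, at a minimum of 10 TPM, was 0.10, against 0.06 over all these genes, and at a minimum of 1 TPM it was 0.35 over 9 members, against 0.06. Counts without length correction, scaled by edgeR's TMM or DESeq2's size factors, left 2 of 6 highest in line 72, where 27.9% of the 8428 genes were with TMM and 29.2% with size factors. The lines were almost level for Notch1 and Jag2, and these moved to lines 66 and 67, Jag2 already with plain CPM (counts scaled to the library total alone). Notch3, Dll1, Jag1, Hey1 and Heyl were highest in line 72 by TPM, CPM, TMM and size factors, with ratios of the highest to the lowest line of 1.66 for Notch3 and 1.51 for Dll1 under TMM.

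**Figure D2:**
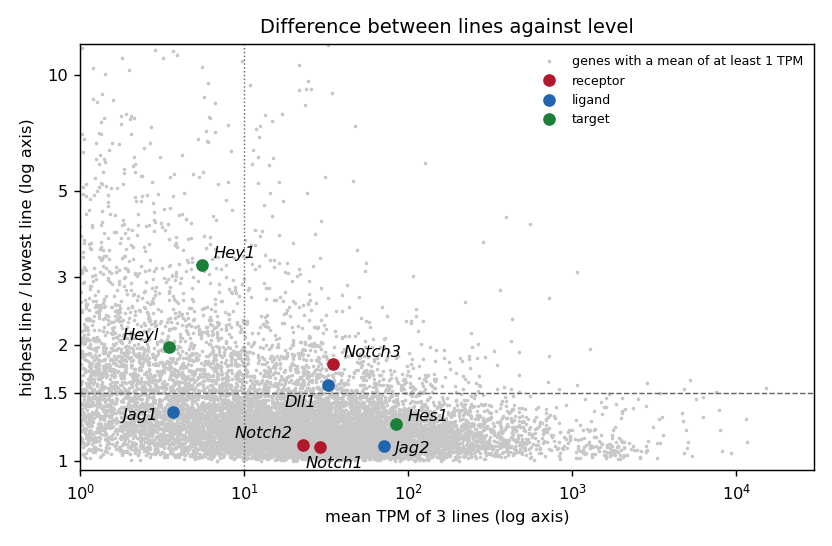
Ratio of the highest to the lowest line (log axis) against the mean TPM of 3 lines (log axis), with a grey point for each of 12494 genes that reached a mean of 1 TPM and coloured points for 9 Notch genes (Dll4 lies below 1 TPM); 34 genes above 12-fold are not drawn. The dashed line marks 1.5-fold and the dotted line 10 TPM, and Notch3 and Dll1 lie above both.

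The sums over transcripts mixed protein-coding and other models, and the members differed in how far this mattered. Of the TPM of Notch1, Notch2, Notch3 and Hes1, between 89.0% and 100% belonged to protein-coding transcripts in each line. For Jag2 the coding share was 59.7%, 60.9% and 56.1% of TPM in lines 66, 67 and 72, yet between 92.5% and 93.6% of its counts. The difference came from short models, in which few counts give a high TPM. The retained-intron model Jag2-204 of 406 bases had 110, 131 and 179 counts and 8.07, 10.3 and 14.1 TPM, beside 33.5, 33.4 and 34.6 TPM of the full coding transcript of 5106 bases.

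Dll1 had the same pattern, with coding shares of 64.4%, 63.7% and 65.8% of TPM in lines 66, 67 and 72. Its retained-intron model Dll1-204 of 751 bases was at 6.25, 8.60 and 8.67 TPM, and its coding transcripts alone were at 16.4, 20.1 and 26.4 TPM, with a ratio of the highest to the lowest line of 1.61. Coding shares of Hey1 and Heyl were lower in line 66 (66.0% and 61.7% of TPM) than in lines 67 (93.4% and 96.4%) and 72 (93.8% and 93.2%). By coding transcripts Hey1 was at 2.89, 2.72 and 8.77 TPM and Heyl at 1.61, 2.60 and 4.81 TPM in lines 66, 67 and 72, so that line 72 stood above the other lines for both.

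**Figure D3:**
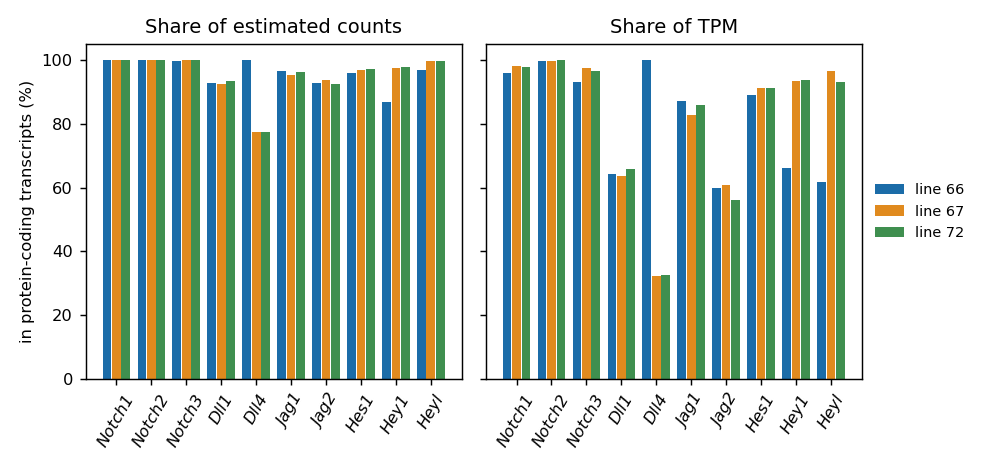
Percent of each Notch gene's estimated counts (left) and of its TPM (right) that fell on protein-coding transcripts, with 1 bar per line and axes from 0. Jag2 and Dll1 keep over 92% of counts on coding transcripts in every line but between 56.1% and 65.8% of TPM, and the Dll4 bars rest on 3 to 6 counts.

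Sequence shared with other genes in the same orientation touched the members little. All words of 31 bases in the transcripts of 9 members occurred in no other listed gene, with words read in the orientation of each transcript only. For Notch2 95.7% did, the rest being shared with Gm42820, which had 35.4, 49.3 and 44.7 counts in lines 66, 67 and 72. Antisense genes that overlap exons of Notch1, Notch3 and Dll4 had at most 41 counts in any line. That of Dll4, Gm14207, had 1, 3 and 0 counts in lines 66, 67 and 72, which is not small beside the 3, 6 and 3 of Dll4.

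The machinery around the members spanned a wide range of levels. Of 58 further genes of the pathway, 36 had a mean of at least 10 TPM, 10 lay between 1 and 10 TPM and 12 lay below 1 TPM. Of all 35562 genes 8428 reached 10 TPM, which is 33% of the 25510 genes with any signal, and 23034 lay below 1 TPM. Rbpj, through which the receptors act on DNA, was at 86.9, 107 and 104 TPM in lines 66, 67 and 72. It was above Hes1 in lines 67 and 72 and in the mean (99.3 TPM). The order turned by coding transcripts alone, where Rbpj was at 53.7, 67.3 and 65.5 TPM, below Hes1 in 3 of 3 lines and close to the coactivator Snw1 (66.6, 63.7 and 67.0 TPM), which was named after its values were seen. The coactivator Maml2 was the lowest of the nuclear activators at a mean of 3.94 TPM. Among the genes of receptor cleavage, the gamma-secretase subunit Aph1a was highest at 77.6 TPM and its paralog Aph1c lowest at 0.774 TPM. Furin, the protease that cuts the receptor on its way to the surface, was at 107 TPM, and Mfng, a fringe enzyme that adds sugars to receptors, at 0.262 TPM.

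On the ligand side, the endocytic adaptor Epn1 was highest among the genes of ligand uptake at a mean of 83.7 TPM, and the ubiquitin ligase Neurl1b was lowest at 0.0898 TPM. Ctbp1, a corepressor, was at 167 TPM and Tle4, another, at 2.38 TPM. Of the less usual ligands, Dlk2 was at 16.6 TPM and Dll3 at 0.058 TPM. Further Hes and Hey genes were mostly low. Hes6, a myogenic Hes gene that does not need Notch, was at 278, 259 and 261 TPM in lines 66, 67 and 72. But 6 of 7 genes of this group had means below 1 TPM, where 23034 of all 35562 genes did. Hes3 had 0 counts in every line, which allows up to 3.

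**Figure D4:**
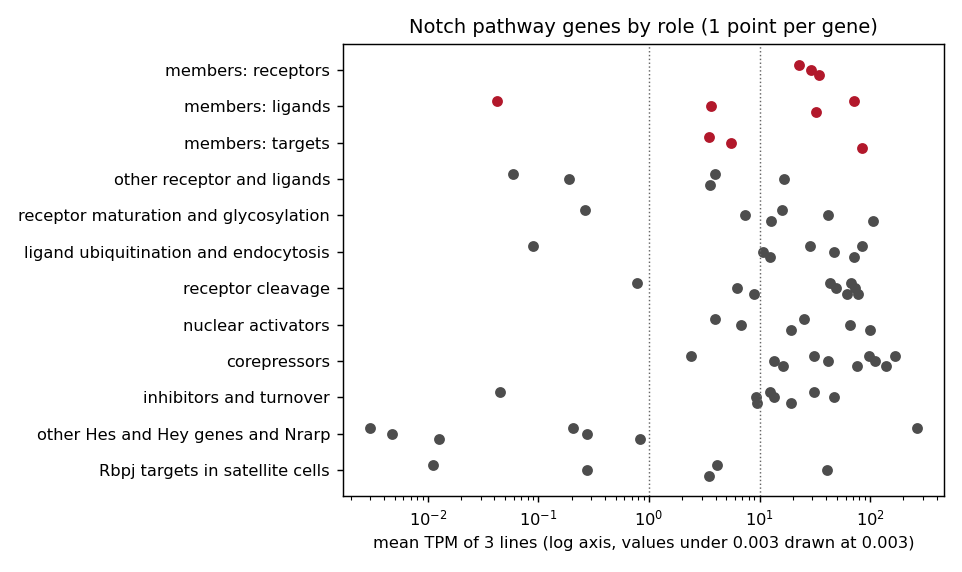
Mean TPM of 3 lines (log axis) for 1 point per gene, with members in red and other genes in grey, grouped by role; dotted lines mark 1 and 10 TPM. Of the 58 other pathway genes 36 lie at or above 10 TPM (33% of the 25510 genes with any signal do). The further Hes and Hey genes lie below 1 TPM but for Hes6.

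Few of these genes differed between lines. Of the 36 that reached a mean of 10 TPM, 2 were over 1.5-fold apart, where 9.79% of genes were, and their median ratio was 1.13. They were a pair of Deltex genes, which act in receptor turnover. Dtx4 was at 8.66, 9.02 and 22.8 TPM in lines 66, 67 and 72, and reached a mean of 10 TPM only through line 72, so that its place in this count rests on the difference itself. Dtx3 was at 54.9, 50.2 and 36.0 TPM, lowest in line 72, and Dtx1 was the lowest of its group at a mean of 0.0447 TPM. Dtx3 lies on chromosome 10, of which the genes as a group stood 0.29 (log2) above the median of all genes in line 66. Relative to that median they stood at -0.09 in line 67 and -0.19 in line 72, while the members' chromosomes stood between -0.06 and 0.06 in every line. The part of this shift in the Dtx3 level was not tested.

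Some further genes of the pathway are given here, chosen after their values were seen. Nrarp, a Notch-induced inhibitor of the receptor complex, had 55, 113 and 146 counts and was at 0.41, 0.91 and 1.16 TPM in lines 66, 67 and 72. Lfng, a fringe enzyme that is itself a Notch target in the embryo, was at 5.49, 5.95 and 10.9 TPM. Dner, a neuronal protein with Delta-like repeats, was at 2.63, 2.21 and 7.15 TPM. Each was highest in line 72, and of all 46 further pathway genes whose mean reached 1 TPM, 3 (Dtx4, Lfng and Dner) were over 1.5-fold apart and highest in line 72, where 7.75% of genes were. Hes5, a target in the nervous system, had 1, 0 and 0 counts, and Hey2, a target in vessels, had 29, 14 and 42 counts.

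Windows before the start of Hes5 and Lfng are shown as examples that hold the Rbpj letters GTGGGAA (searched on both strands, in capitals). Of 68 windows of the further pathway genes and Rbpj targets 6 held them, those of Hes5, Hes7, Hey2, Lfng, Psen2 and Spen, and of the members' 8 windows 0 did. RefSeq windows of up to 250 bases were at hand for 7 of 10 members, and not for Hes1, Hey1 and Heyl. Bases inside an exon of the gene itself were left out. Hes5 is chr4:154960673-154960922 and Lfng chr5:140607091-140607319, both on the plus strand (GRCm38.p6). The Hes5 window overlaps an exon of another gene, Gm20421.
Hes5: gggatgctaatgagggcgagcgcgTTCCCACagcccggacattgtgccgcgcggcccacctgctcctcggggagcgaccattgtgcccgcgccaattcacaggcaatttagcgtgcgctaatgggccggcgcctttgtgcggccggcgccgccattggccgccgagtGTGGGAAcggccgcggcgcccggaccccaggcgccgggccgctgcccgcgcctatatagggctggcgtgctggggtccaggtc
Lfng: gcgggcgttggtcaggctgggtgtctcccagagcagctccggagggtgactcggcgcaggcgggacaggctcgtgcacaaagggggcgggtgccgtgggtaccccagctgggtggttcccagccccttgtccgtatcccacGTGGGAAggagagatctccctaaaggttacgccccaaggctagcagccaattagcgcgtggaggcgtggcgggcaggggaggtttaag
Matches begin 226 and 83 bases before the start in Hes5, the former read on the other strand, and 109 bases before it in Lfng, where the match overlaps an E-box. The letters occur in 5.42% of all 32851 windows. Hes5 was at the floor in these lines and Lfng was not, and the lack of a match in the members' windows says only that the letters are not there. Of the members' 8 windows, 3 (those of Dll1 and Jag1) held an E-box, where 66.2% of all windows did, and 4 an N-box, where 36.7% did.

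Genes that Notch and Rbpj are known to drive in satellite cells were then read beside the members. Calcr, the calcitonin receptor of quiescent satellite cells, had 1, 0 and 3 counts in lines 66, 67 and 72. Col5a1, a collagen V chain, was at 34.8, 34.1 and 52.1 TPM. The other 3 genes of this list are given after their values were seen. Col5a3 was at 1.73, 3.16 and 7.55 TPM and Col6a1 at 2.10, 1.97 and 6.31 TPM, while Col6a2 was at 0.10, 0.16 and 0.56 TPM from 25, 34 and 125 counts. All 3 of the 3 genes of that list whose mean reached 1 TPM (Col5a1, Col5a3 and Col6a1) were over 1.5-fold apart and highest in line 72, where 7.75% of all genes were. Hey1 and Heyl were so too, but Hes1, the other target among the members, was highest in line 66. The list was chosen with earlier results of these data known, so this count is a description and not a test. Collagens are also made by fibro-adipogenic cells, whose 8 markers summed to 6.66, 5.41 and 17.7 TPM in lines 66, 67 and 72. The higher sum in line 72 was that of Cd34 (2.68, 1.45 and 13.8 TPM). Ly6a was almost level (2.97, 3.31 and 3.26 TPM), Pdgfra (0.454, 0.378 and 0.387 TPM), Pi16, Clec3b and Dcn were below 1 TPM and not highest in line 72, and Lum and Dpt had 0 counts in every line. The part of fibro-adipogenic cells in the collagen, Hey1 and Heyl levels was not tested.

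**Figure D5:**
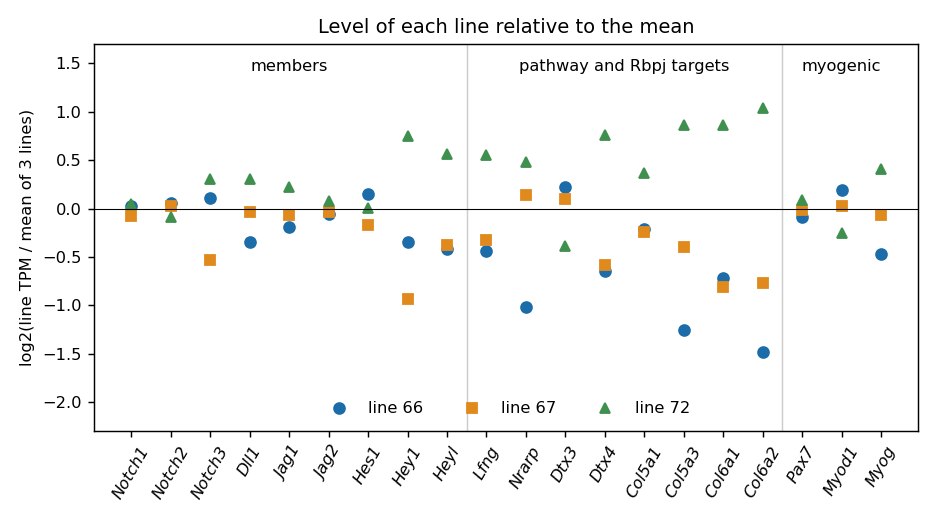
Log2 ratio of each line's TPM to the mean of the 3 lines for 9 Notch genes (left), pathway genes and Rbpj targets named in the text (middle, some named after their values were seen) and 3 myogenic genes (right). Line 72 lies highest for Notch3, Dll1, Jag1, Hey1 and Heyl but lowest for Notch2, Dtx3 and Myod1.

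The myogenic stage of the lines set the frame for these values. Pax7, the satellite cell factor, was at 136, 143 and 154 TPM and Myf5 at 97.2, 118 and 113 TPM in lines 66, 67 and 72. Myod1, the factor of activated myoblasts, was at 791, 702 and 579 TPM, highest in line 66 like Hes1, while Myog was highest in line 72. The proliferation genes Mki67 (35.6, 64.1 and 54.3 TPM) and Top2a (156, 193 and 184 TPM) were highest in line 67, in which Notch3, Hes1 and Hey1 were lowest. With 1 library a line these are descriptions, and the part of stage or proliferation in the members' levels was not tested.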

How the data were processed

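RNA-seq libraries (stranded, poly-A selected) of 3 edited myoblast lines were used as 1 condition, with the line as the replicate. Per the submitters' processing notes, reads were handled with bcl2fastq 2.20 and fastp 0.20 and quantified with kallisto 0.46.1, with GRCm39 named as the build. The annotation and the strand setting are not given in the sources used here. The authors deposited estimated counts of 121798 transcripts, not normalized, in which reads with several matching transcripts are shared out among these. The deposited TPM values are estimated counts over effective length, scaled so that every library has the same total. Short transcripts can thus gain a high TPM from few counts. The effective length was above the transcript length for between 22208 and 23603 transcripts per line, and why is not given. Among them were the main coding transcripts of Notch1 (9488 bases, effective length 10931 in line 66) and Notch3 (8016 bases, 10468). The order of genes by TPM carries this correction too. The sum of estimated counts was 73274315 for line 66, 66972426 for line 67 and 70272367 for line 72.

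Identifiers were matched to GENCODE release M21 (GRCm38). The 1112 transcripts without a match, with between 0.493% and 0.535% of counts, were left out. TPM and counts were summed per gene. A pseudocount of 1 was used for log2 differences of pairs, and the exact sign-flip test was two-sided. Differences between lines were the ratio of the highest to the lowest line among genes whose mean reached 10 TPM, and the share of all genes past 1.5-fold is given beside the counts of members. Poisson intervals and the floor of 3 counts cover counting error only. The members and the gene lists were chosen with earlier results of these data known. Genes named outside the members are the highest and the lowest of each role group, those over 1.5-fold apart at that level, the markers and the myogenic stage genes, and others where the text says so.

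Alternatives were a minimum of 1 TPM or none, a pseudocount of 0.1, a fold of 2, CPM (without length), edgeR's TMM, DESeq2's size factors (on counts rounded to whole numbers), leaving out each line, and sums over protein-coding transcripts, some of which were added after seeing the data. Motifs were searched in RefSeq windows (GRCm38.p6). Scaling was run in R 4.3.3 with DESeq2 1.42.0 and edgeR 4.0.16, and all else in Python 3.11.15 with scipy 1.17.1, pandas 2.3.3 and numpy 2.4.6, with figures from matplotlib 3.10.9.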

Additional observations from a re-analysis of the deposited data

How the results depend on the processing

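The direction of 2 results changed. The log2 difference of the receptor sum minus the ligand sum was -0.31 by TPM, 1.46 by CPM (without length) and 0.34 by protein-coding transcripts. Heyl minus Hey1 was -0.47 by TPM and 0.39 by CPM. The count of members over 1.5-fold between lines was 2 of 6, 4 of 9 with a minimum of 1 TPM, 4 of 9 by coding transcripts at that minimum (19.3% of all genes so tested, chosen after seeing the data), 5 of 10 with a TPM above 0 in every line as the minimum (43% of all such genes, and the fifth was Dll4 with 3 to 6 counts), and 0 at a threshold of 2-fold. Leaving out any line left 1 member over 1.5-fold, Notch3 without line 66 or line 72 (3.61% and 5.65% of the 8428 genes) and Dll1 without line 67 (5.7%), so each count rests on single lines. Members highest in line 72 were 4 of 6, 2 of 6 with TMM, 2 of 6 with DESeq2's size factors (both on counts without length) and 7 of 9 with a minimum of 1 TPM. Members with a mean of at least 10 TPM were 6, and 8 by CPM. Of 50 values of single genes under alternatives, 40 moved by less than 1 SD of the lines, which for genes with a wide spread is a loose limit. The mean of Dll4 went from 0.0422 to 0.0170 TPM by coding transcripts and 0.0257 TPM without line 67, and that of Hey1 from 5.55 to 3.65 TPM without line 72. No paired analysis was possible because there is only 1 condition and so no groups to pair (the gene pairs are compared within lines). Depth limits Dll4, Hes5 and Calcr, which had at most 6 counts in any line, and the number of lines limits every test.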
